A study of Sus scrofa with 8 samples.

Results

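The genes described here bring fatty acids into heart muscle cells, carry them into mitochondria and oxidise them there or in peroxisomes. They were taken by name from a list of 44 symbols, which was drawn up with earlier results of these data known, although the rule itself uses no measured value. The expression table of 18975 genes held 38 of these symbols in 41 entries, because *FABP3*, *CPT1A* and *ACADVL* were each listed in 2 entries. *LPL*, *ACSL1*, *ACOT2*, *MLYCD*, *GPIHBP1* and *DGAT2* were not found under these symbols, and only *ACSL1* could be reached in another way, through the Ensembl ID of a gene listed under an older name. Of the 41 entries, 40 were tested, and *SLC27A6* stayed below the filter of at least 1 FPKM (fragments mapped per kilobase of transcript, scaled to the fragments mapped in the library) in at least 2 libraries.

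Heart RNA was sequenced from male Tibetan and Yorkshire pigs aged 6 months. Tibetan pigs were raised in the highland at 3000 m (TH) or in the lowland at 100 m (TL), and Yorkshire pigs likewise (YH and YL). Each of the 4 groups had 2 libraries, each prepared from the mixed RNA of 4 pigs, so that replicate spread and every p-value below refer to pools of animals. The male sex, the age and the pooling were shared by all groups. The highland groups were raised in Linzhi and the lowland groups in Beijing, so altitude and place of rearing cannot be told apart.

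As background, the adult heart draws most of its ATP from long-chain fatty acids. They cross the plasma membrane with the help of *CD36* and the SLC27A transporters, are carried in the cytosol by fatty acid binding proteins and are activated to acyl-CoA by the ACSL enzymes. Acyl groups enter mitochondria as carnitine esters made by CPT1, the step that malonyl-CoA inhibits, and are moved by the carrier *SLC25A20* and turned back into acyl-CoA by *CPT2*. In the mitochondrial spiral an acyl-CoA dehydrogenase, a hydratase, a hydroxyacyl-CoA dehydrogenase and a thiolase release acetyl-CoA in turn, and electrons of the first step pass through the electron transfer flavoprotein (*ETFA* and *ETFB*) and *ETFDH* to ubiquinone. Unsaturated acyl chains need extra enzymes such as *DECR1* and *ECI1*, very long chains are first shortened in peroxisomes, and acyl chains that are not burned are stored in lipid droplets.

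Between 15687000 and 26723000 reads per library fell on genes, with a median of 19648000. The libraries carried heart muscle markers at high levels, such as *TNNI3* at 4597 to 16847 FPKM. YL2 stood apart, since 21 of 21 entries of a kidney marker list were more than 2 times higher there than in every other library, and their summed level was 11102 FPKM in YL2 and 15.7 to 49.2 in the other 7. Its summed level of 13 cardiomyocyte markers was 18502 FPKM, against 28617 to 47683 elsewhere. The 2 TH libraries had a summed level of 10 atrial markers of 6822 and 5592 FPKM, against 477 to 2881 in the other 6, most of it from the atrial myosin light chain *MYL7*, at 4283 and 3207, and the atrial peptide gene *NPPA*, at 2263 and 2146 against 23.1 to 108. Of the 10, TH stood above YH without overlap in 6 and below it in 2, against 25.2% and 27.3% of all genes. TH stood above TL in 4 and below it in 4, against 24.0% and 24.5%. TH1 also read short genes higher than the other libraries, by 0.34 on the log2 scale for the shortest genes and by 0.11 for the longest. The share of all FPKM on the mitochondrial genome ran from 57.7% to 87.6% between libraries. In such bulk samples, fewer cells of a type and less RNA per cell cannot be told apart. Tested differences that involve YL are therefore given also with YL1 as the only YL library (without YL2).

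The fatty acid genes were among the most abundant transcripts of these hearts. Of the 41 entries, 17 had a mean of 100 FPKM or more over the 8 libraries, 16 a mean of 10 to 100 and 8 a mean under 10. This made 41.5% of the entries at 100 FPKM or more, against 3.33% of all listed genes. The highest levels belonged to both *FABP3* entries, *CD36*, *HADHA*, *FABP5* and *HADHB*, and the lowest to *SLC27A6*, the chromosome 12 entry of *ACADVL* and *UCP3*. Their summed level was between 3239.8 and 5151 FPKM in all libraries.

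**Figure D1:**
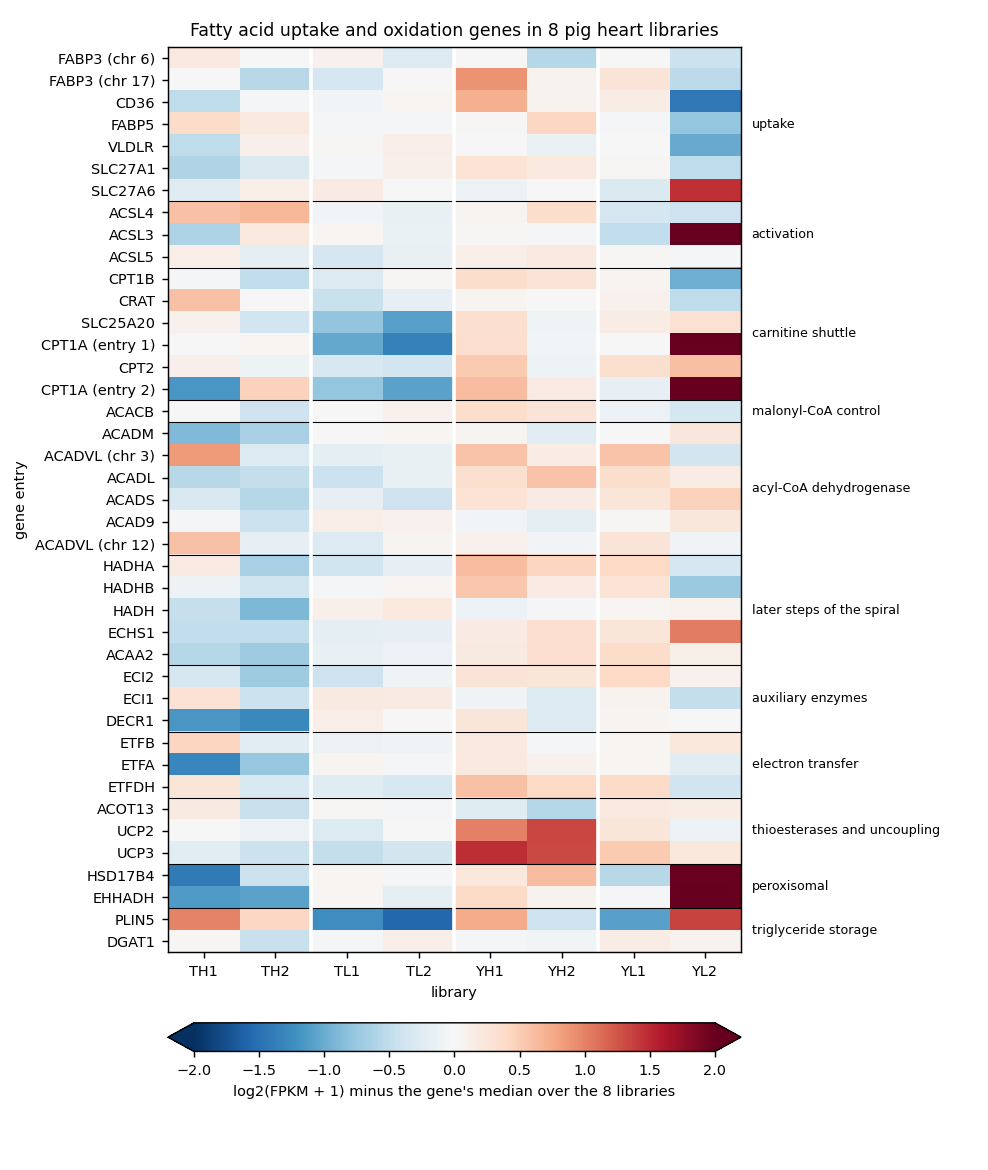
Level of each of the 41 entries in each library as log2(FPKM + 1) minus the median of that gene over the 8 libraries, with genes grouped by role and colours ending at 2 in either direction. Blue cells gather in the TH columns for *DECR1*, *ETFA*, *ACADM*, *ACAA2* and *EHHADH*, in the TL columns for *CPT1A*, *SLC25A20* and *PLIN5*, and the darkest red cells lie in YL2.

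The groups were compared with limma on log2(FPKM + 1) in 1 fit of all 8 libraries, and a gene was called at a Benjamini-Hochberg adjusted p under 0.01 over all 11913 genes tested with a log2 fold change over 1 in size. In TH vs. YH, 0 of 40 fatty acid entries were called by limma, where 0.0336% of all genes were. At an unadjusted limma p under 0.05, 12 of the 40 differed and all 12 were lower in TH, which is 30% of the entries against 8.47% of all genes. In 21 entries both TH libraries lay below both YH libraries, and in 2 both lay above, which is 52.5% and 5% against 27.3% and 25.2% of all genes. The median log2 fold change of the 40 entries was -0.54, against -0.03 over all genes. Leaving out YH1 or YH2 left 6 and 7 entries at an unadjusted p under 0.05 (7.33% and 8.85% of all genes), and leaving out YL2 gave 16, all lower in TH, where 11.8% of all genes were lower. *UCP3* alone had an adjusted p under 0.05 with that fold (0.26% of all genes). It is 1 of the 12, but it passed the filter only through Yorkshire libraries, the group in which it is high, and this gives no support to a difference, here or in the other counts that include it.

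In TL vs. YL, 0 of 40 entries were called by limma, where 0.00839% of all genes were, and 8 were lower in TL at an unadjusted p under 0.05, which is 20% against 3.04% of all genes. Both TL libraries lay below both YL libraries in 14 entries and above them in 5, or 35% and 12.5% against 17.8% and 23.8% of all genes. The count of 8 rested on single libraries. Without YL2 it was 4 (3.89% of all genes), and these 4, *ACADL*, *SLC25A20*, *UCP3* and the larger *CPT1A* entry, were among the 8. Without YL1, 11 entries were lower and 5 higher in TL, against 13.7% and 11.8% of all genes. In either direction the count was 2 without TL1 (4.03% of all genes), 3 without TL2 (4.0%) and 5 without YH1 or YH2 (6.82% each). Without YL2, 11 of the 40 differences changed sign, none of them among the 8.

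In TH vs. TL, 0 entries were called by limma (0.0504% of all genes). At an unadjusted p under 0.05, 4 were lower and 3 higher in TH, against 5.53% and 5.81% of all genes, and together they made 17.5% of the entries against 11.3%. The groups stood apart with TH lower in 12 entries and higher in 7, or 30% and 17.5% against 24.5% and 24.0% of all genes. The count of 7 was 4 without TL1 (4.75% of all genes), 2 without TL2 (5.02%) and 12 without YL1 or YL2 (17.1% of all genes without YL2).

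In YH vs. YL, 0 entries were called by limma (0.0% of all genes), and 3 were higher in YH at an unadjusted p under 0.05, which is 7.5% against 4.39% of all genes. YH stood above YL without overlap in 11 entries and below it in 4, or 27.5% and 10% against 21.9% and 14.4% of all genes. Without YL2 again 3 were higher (3.41% of all genes), but only *UCP2* and *UCP3* were among them both times, with *PLIN5* in place of *ACSL4*. Without TH1, 4 entries were higher and 1 lower (7.04% and 2.08% of all genes), and without TH2 also 4 and 1 (6.99% and 2.07%). Without YL1, 11 were higher and 6 lower, against 11.6% and 13.7% of all genes. Without YL2, 12 of the 40 differences changed sign, none of them among the 3. The entries had a median log2 fold change of -0.20 in TL vs. YL and of 0.02 in YH vs. YL, where leaving out single libraries moved it from -0.040 to 0.15. It was -0.14 in TH vs. TL and 0.04 there without TH2. Over all genes the median was 0.02 in TL vs. YL, 0.03 in YH vs. YL and -0.02 in TH vs. TL. With 2 libraries against 2, no exact two-sided permutation test can give a p under 0.333, so every p here rests on the spread that limma shares across genes.

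**Figure D2:**
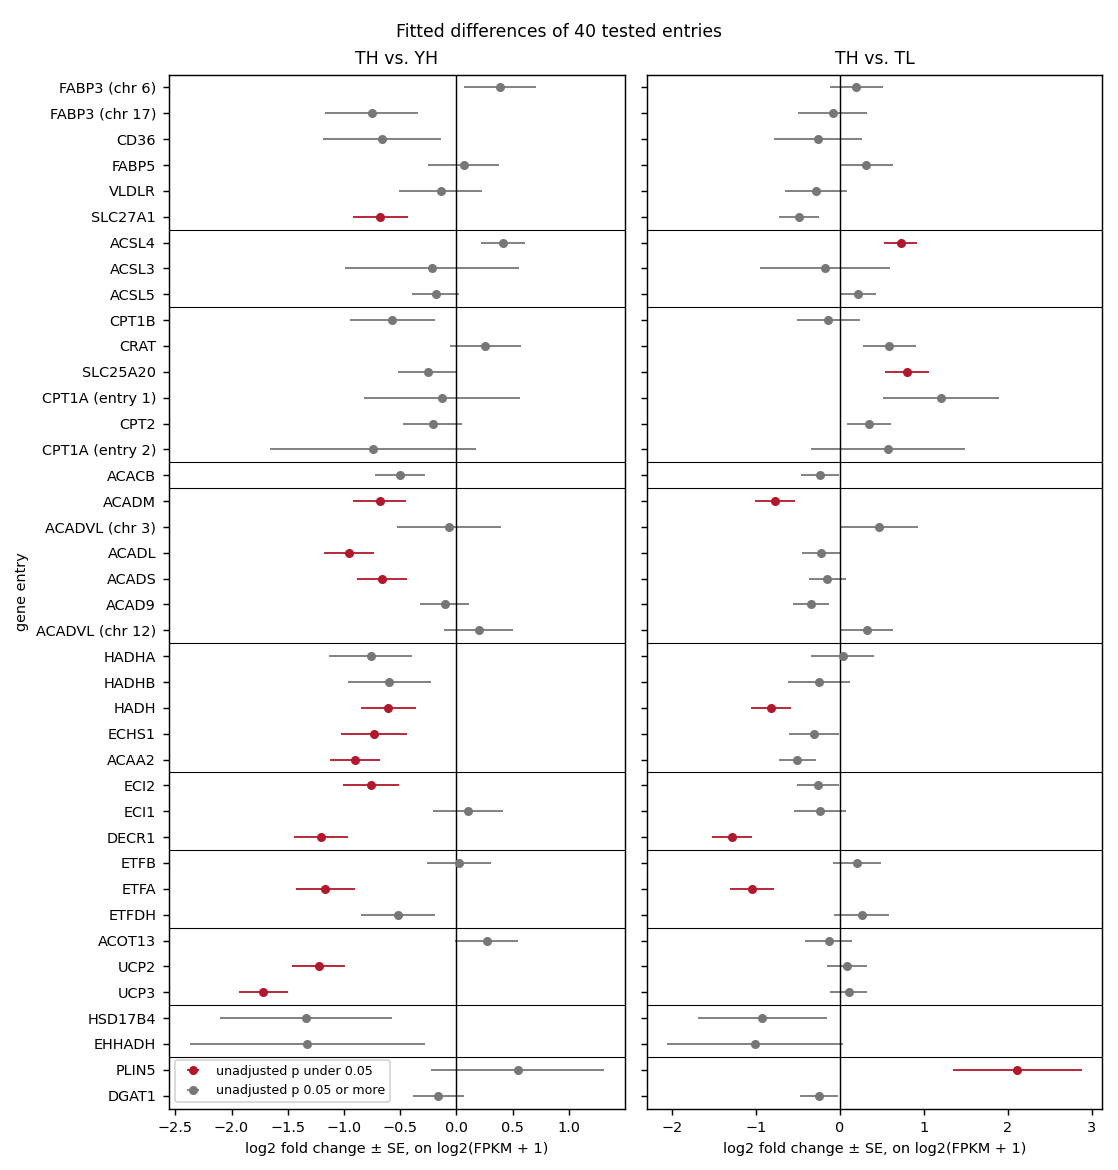
Fitted log2 fold change of each of the 40 tested entries with its standard error, in TH vs. YH (left) and TH vs. TL (right), with red for an unadjusted limma p under 0.05. All 12 red points of TH vs. YH lie left of 0, while TH vs. TL has 4 red points on the left and 3 on the right.

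Uptake and transport held several of the most abundant entries. *FABP3*, the main cytosolic fatty acid carrier of heart muscle, was listed on chromosome 6 from 75996930 to 75997332 and on chromosome 17 from 17683080 to 17683527 of Sscrofa10.2, and reads could be split between these copies in an unknown way. The chromosome 6 entry of *FABP3* was at 464 and 406 (TH), 429 and 335 (TL), 403 and 272 (YH) and 407 and 299 (YL). The chromosome 17 entry was at 285 and 193 (TH), 221 and 279.9 (TL), 526 and 298 (YH) and 337 and 196 (YL). The copies did not keep one ratio, since the chromosome 6 entry held 43.4% to 47.7% of their sum in YH and 54.5% to 67.8% in the other groups. Neither entry reached an unadjusted p under 0.05 in any of the 4 comparisons.

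*CD36* encodes the fatty acid translocase of heart muscle and of capillary endothelium. FPKM of *CD36* was 208 and 287 (TH), 283 and 304 (TL), 486 and 311 (YH) and 328 and 109 (YL). Both YH libraries and YL1 lay above every Tibetan library, and YL2 was the lowest of all. The 11 endothelial markers summed to 207 to 308 FPKM in 7 libraries and to 177 in YL2. Their median log2 fold change was -0.49 in TH vs. YH, with 5 apart lower and 2 apart higher, against 27.3% and 25.2% of all genes. In YH vs. YL all 11 were higher, 9 of them without overlap, against 21.9% of all genes. Their part in the level of *CD36* was not tested. *SLC27A1*, the fatty acid transport protein that also has acyl-CoA synthetase activity, was one of the lower genes of TH. Its levels were 9.28 and 11.7 (TH), 14.4 and 15.6 (TL), 17.8 and 16.8 (YH) and 14.7 and 9.98 (YL). The TH libraries lay below both YH libraries and both TL libraries, and YL2 fell between them. The difference in TH vs. YH was -0.68 ± 0.24 (SE), adjusted p = 0.256. It was the 1 uptake entry of 6 tested with an unadjusted p under 0.05 in that comparison, where 8.47% of all genes were lower.

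*FABP5* and *VLDLR*, an epidermal-type fatty acid carrier and a receptor for triglyceride-rich lipoproteins, were at 143 to 326 and 21.4 to 48.6 FPKM, with YL2 the lowest library for both. *SLC27A6*, a transport protein named for its expression in heart, was near the detection limit. It was listed at 0.252 and 0.618 (TH), 0.650 and 0.463 (TL), 0.369 and 0.494 (YH) and 0.209 and 3.06 (YL). Only YL2 passed 1 FPKM, with 259 reads, against 10 to 40 reads in the other libraries, and the gene was not tested.

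Activation was represented by 3 acyl-CoA synthetases. *ACSL4*, which prefers arachidonate and other polyunsaturated fatty acids, was the most abundant under its own symbol. It was measured at 19.4 and 20.5 (TH), 12.1 and 11.3 (TL), 13.1 and 16.4 (YH) and 9.78 and 9.26 (YL). The 2 TH libraries were the highest of the 8. The difference in TH vs. TL was 0.73 ± 0.20 (SE), adjusted p = 0.272. In YH vs. YL it was 0.58 ± 0.20 (SE), adjusted p = 0.767, and 0.54 ± 0.23 (SE) without YL2, adjusted p = 0.913, where its unadjusted p was 0.0531. *ACSL3*, a synthetase of the endoplasmic reticulum and of lipid droplets, behaved otherwise. FPKM of *ACSL3* was 3.56 and 6.98 (TH), 6.21 and 5.42 (TL), 6.13 and 5.88 (YH) and 4.01 and 30.8 (YL). YL2 was 4.41 times the next library, and TH spanned the other 5. *ACSL5*, a synthetase of mitochondria and the endoplasmic reticulum, stayed between 0.972 and 1.84 FPKM.

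*ACSL1*, the main long-chain synthetase of heart muscle, was matched by ID to the gene listed as *FACL2* (ENSSSCG00000015784, chromosome 15, 52526605 to 52592779). Its levels were 60.6 and 83.1 (TH), 74.5 and 66.98 (TL), 153 and 107 (YH) and 83.5 and 194 (YL). Both TH libraries lay below both YH libraries, and TH overlapped TL. It was not found by its symbol and enters no count given here. In TH vs. YH it differed by -0.85 ± 0.42 (SE), with an adjusted p of 0.379 by Benjamini-Hochberg in limma.

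In 4 of the 6 entries of the carnitine shuttle TL, and not TH, lay below TH, YH and YL1, an order that 6.13% of all genes had. *SLC25A20*, the carrier that exchanges acylcarnitine for carnitine across the inner mitochondrial membrane (ENSSSCG00000011366, chromosome 13, 34777398 to 34804791), showed it without overlap. Its FPKM was 38.8 and 27.8 (TH), 20.5 and 16.6 (TL), 45.5 and 34.00 (YH) and 40.4 and 44.9 (YL). Both TL libraries lay below the other 6. In TH vs. TL it differed by 0.80 ± 0.26 (SE), adjusted p = 0.327. In TL vs. YL it was -1.17 ± 0.26 (SE), adjusted p = 0.269, and -1.09 ± 0.31 (SE) without YL2, adjusted p = 0.352. The TH vs. TL difference minus the YH vs. YL difference was 0.91 ± 0.37 (SE), adjusted p = 0.445, and 0.84 ± 0.40 (SE) without YL2, adjusted p = 0.441, where its unadjusted p was 0.0831.

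*CPT1A* is the form of CPT1 that liver and kidney use, and heart muscle uses it beside the more abundant *CPT1B*. Both *CPT1A* entries were listed at the same position (chromosome 2, 2815219 to 2874163), and reads could be split between them. The larger *CPT1A* entry was at 13.7 and 14.2 (TH), 6.26 and 4.79 (TL), 17.8 and 13.3 (YH) and 13.9 and 78.6 (YL). The smaller one was at 0.812 and 4.62 (TH), 1.37 and 0.939 (TL), 5.26 and 3.54 (YH) and 2.65 and 25.1 (YL). In the larger entry TL was the lowest group, TH, YH and YL1 lay close together and YL2 was 4.43 times the next library. In the smaller entry TH1 was as low as TL, with 17 reads. For the larger entry, the log2 fold change in TL vs. YL was -2.41 ± 0.69 (SE), adjusted p = 0.352, and -1.20 ± 0.27 (SE) without YL2, adjusted p = 0.241. In TH vs. TL it was 1.20 ± 0.69 (SE), adjusted p = 0.559. Without YL2 the same difference had an adjusted p of 0.0887.

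*CPT1B*, the muscle form of CPT1 (unplaced scaffold GL894016.1), was the most abundant gene of the shuttle. Its levels were 159 and 114 (TH), 134 and 164 (TL), 207 and 194 (YH) and 168 and 81.6 (YL). YH and YL1 lay above all Tibetan libraries, and YL2 was the lowest. The larger *CPT1A* entry made 2.84% to 11.05% of the sum of *CPT1A* and *CPT1B* in 7 libraries and 49.1% in YL2. *CPT2*, which rebuilds acyl-CoA inside mitochondria, was at 12.8 and 12.2 FPKM in TL and at 15.01 to 25.02 in the other 6 libraries. Its log2 fold change in TL vs. YL was -0.81 ± 0.26 (SE), adjusted p = 0.415, and -0.68 ± 0.30 (SE) without YL2, adjusted p = 0.559, where its unadjusted p was 0.0665. *CRAT*, carnitine acetyltransferase, was at 95.1 to 204 FPKM, with TL below TH, YH and YL1 and YL2 lowest. Of the 6 shuttle entries, 4 were lower in TL vs. YL at an unadjusted p under 0.05, where 3.04% of all genes were. Without YL2 it was 2, where 3.89% of all genes were.

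*ACACB*, the acetyl-CoA carboxylase that makes malonyl-CoA at the mitochondrial surface, was the 1 gene of malonyl-CoA control in the table. It was at 14.8 and 10.8 (TH), 14.5 and 15.6 (TL), 18.9 and 17.6 (YH) and 13.5 and 11.3 (YL). Both YH libraries were the highest of the 8, and TH overlapped TL and YL. The TH vs. TL difference minus the YH vs. YL difference was -0.76 ± 0.31 (SE), adjusted p = 0.451, and -0.65 ± 0.32 (SE) without YL2, adjusted p = 0.448, where its unadjusted p was 0.0905.

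Of the acyl-CoA dehydrogenases, the medium-chain and long-chain forms were low in TH. *ACADM*, the medium-chain form (chromosome 6, 127513772 to 127548453), was the most abundant. FPKM of *ACADM* was 123 and 145 (TH), 226 and 233 (TL), 237 and 195 (YH) and 229 and 266 (YL). Both TH libraries lay below the other 6, which overlapped among themselves. *ACADM* differed in TH vs. TL by -0.78 ± 0.24 (SE), adjusted p = 0.314. In TH vs. YH it was -0.68 ± 0.24 (SE), adjusted p = 0.247.

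*ACADL* and *ACADS*, the long-chain and short-chain forms, were ordered by breed. *ACADL* was at 54.1 and 57.2 (TH), 58.7 and 71.99 (TL), 99.4 and 119 (YH) and 102 and 88.4 (YL). *ACADS* was at 46.2 and 38.1 (TH), 51.1 and 42.7 (TL), 69.4 and 64.3 (YH) and 68.3 and 79.6 (YL). For both genes each of the 4 Yorkshire libraries lay above each of the 4 Tibetan ones. *ACADL* differed in TH vs. YH by -0.96 ± 0.23 (SE), adjusted p = 0.148. In TL vs. YL it was -0.54 ± 0.23 (SE), adjusted p = 0.555, and -0.64 ± 0.25 (SE) without YL2, adjusted p = 0.494. For *ACADS* the TH vs. YH difference was -0.66 ± 0.22 (SE), adjusted p = 0.241. Its TL vs. YL difference was -0.65 ± 0.22 (SE), adjusted p = 0.446, and -0.54 ± 0.25 (SE) without YL2, adjusted p = 0.576, where its unadjusted p was 0.0707.

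*ACADVL*, the very long-chain form bound to the inner membrane, was listed on chromosome 3 (139851901 to 139857146) at 99.9 to 235 FPKM and on chromosome 12 (54859684 to 54863767) at 0.518 to 1.76 FPKM. The chromosome 3 entry was at 235 and 107 (TH), 112 and 116 (TL), 192 and 143 (YH) and 192 and 99.9 (YL), so TH spanned TL and YH. *ACAD9*, which mainly serves the assembly of respiratory complex I, was at 7.44 to 12.2 FPKM in all libraries. Neither gene reached an unadjusted p under 0.05 in any comparison.

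All 5 genes of the later steps of the spiral had TH below YH without overlap, as had 27.3% of all genes. *HADHA* and *HADHB*, the subunits of the trifunctional protein, were listed at 1 shared position (chromosome 3, 119649280 to 119782862), so reads of one could be counted for the other. *HADHA* was at 301 and 172 (TH), 205 and 241 (TL), 412 and 363 (YH) and 356 and 214 (YL). *HADHB* was at 232 and 188 (TH), 241 and 257 (TL), 360.0 and 278 (YH) and 301 and 149 (YL). YH and YL1 lay above every Tibetan library for both subunits, and YL2 was at the Tibetan levels or under them. Neither reached an unadjusted p under 0.05 in TH vs. YH with all libraries, and both did without YL2 (adjusted p of 0.215 and 0.207).

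*HADH*, the short-chain hydroxyacyl-CoA dehydrogenase (chromosome 8, 122212875 to 122265890), was lowest in TH and highest in TL. Its levels were 168 and 125 (TH), 248 and 266 (TL), 215 and 227 (YH) and 238 and 245 (YL). Neither TH library reached the other 6, and the TL libraries lay above all of them. *HADH* differed in TH vs. TL by -0.82 ± 0.24 (SE), adjusted p = 0.304. In TH vs. YH it was -0.60 ± 0.24 (SE), adjusted p = 0.294.

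*ECHS1*, the short-chain enoyl-CoA hydratase, and *ACAA2*, the mitochondrial thiolase, were ordered from TH through TL to Yorkshire. *ECHS1* was at 101 and 101 (TH), 124 and 127 (TL), 159 and 179 (YH) and 169 and 291 (YL). *ACAA2* was at 100.3 and 91.4 (TH), 135 and 139 (TL), 170.3 and 189.7 (YH) and 194 and 162 (YL). For both genes TH was below TL and TL below every Yorkshire library, with YL2 the highest library for *ECHS1*. The log2 fold change of *ACAA2* in TH vs. YH was -0.90 ± 0.22 (SE), adjusted p = 0.155. That of *ECHS1* was -0.73 ± 0.30 (SE), adjusted p = 0.297. For *ECHS1* the difference in TL vs. YL was -0.82 ± 0.30 (SE), adjusted p = 0.478, and -0.43 ± 0.23 (SE) without YL2, adjusted p = 0.652, where its unadjusted p was 0.111.

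*DECR1*, the mitochondrial 2,4-dienoyl-CoA reductase that polyunsaturated chains need (ENSSSCG00000006126, chromosome 4, 51207651 to 51243981), was at its lowest levels in TH. It was measured at 29.7 and 27.2 (TH), 74.1 and 67.03 (TL), 79.8 and 55.5 (YH) and 70.5 and 68.3 (YL). The 2 TH libraries were the lowest of the 8 by a wide margin, and the other groups overlapped. In TH vs. YH *DECR1* differed by -1.20 ± 0.24 (SE), adjusted p = 0.107. In TH vs. TL it was -1.28 ± 0.24 (SE), adjusted p = 0.179. The TH vs. TL difference minus the YH vs. YL difference was -1.22 ± 0.34 (SE), adjusted p = 0.337, and -1.20 ± 0.36 (SE) without YL2, adjusted p = 0.306. It rested on 1175 and 851 reads in TH. The direction held in all 16 alternatives for both comparisons, with adjusted p from 0.0633 to 0.588 in TH vs. YH and from 0.0877 to 0.998 in TH vs. TL.

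*ECI2*, an enoyl-CoA isomerase of mitochondria and peroxisomes, was the most abundant auxiliary enzyme. FPKM of *ECI2* was 70.6 and 54.3 (TH), 66.4 and 83.6 (TL), 107 and 105 (YH) and 118 and 94.8 (YL). All 4 Yorkshire libraries lay above all 4 Tibetan ones. The difference in TH vs. YH was -0.76 ± 0.25 (SE), adjusted p = 0.229. *ECI1*, the mitochondrial isomerase, was at 44.1 to 75.3 FPKM, with TH on both ends of the range of the other libraries but YL2.

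In electron transfer the subunits of 1 complex parted. *ETFA* and *ETFB* encode the alpha and beta subunits of the electron transfer flavoprotein. *ETFA* was at 69.7 and 102 (TH), 181 and 169 (TL), 198 and 183 (YH) and 177 and 147 (YL). *ETFB* was at 241 and 152 (TH), 164 and 168 (TL), 205 and 174 (YH) and 183 and 206 (YL). The TH libraries were the lowest of the 8 for *ETFA*, whereas for *ETFB* they held the highest and the lowest value. In TH vs. YH *ETFA* differed by -1.17 ± 0.26 (SE), adjusted p = 0.134. In TH vs. TL it was -1.04 ± 0.26 (SE), adjusted p = 0.255. The TH vs. TL difference minus the YH vs. YL difference was -1.28 ± 0.37 (SE), adjusted p = 0.350, and -1.15 ± 0.38 (SE) without YL2, adjusted p = 0.335. The ratio of *ETFA* to *ETFB* was 0.289 and 0.670 in TH and 0.716 to 1.101 in the other libraries. *ETFDH*, which hands the electrons to ubiquinone, was at 137 and 92.7 (TH), 96.7 and 91.5 (TL), 172 and 152 (YH) and 151 and 87.4 (YL), with YH and YL1 above all Tibetan libraries.

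**Figure D3:**
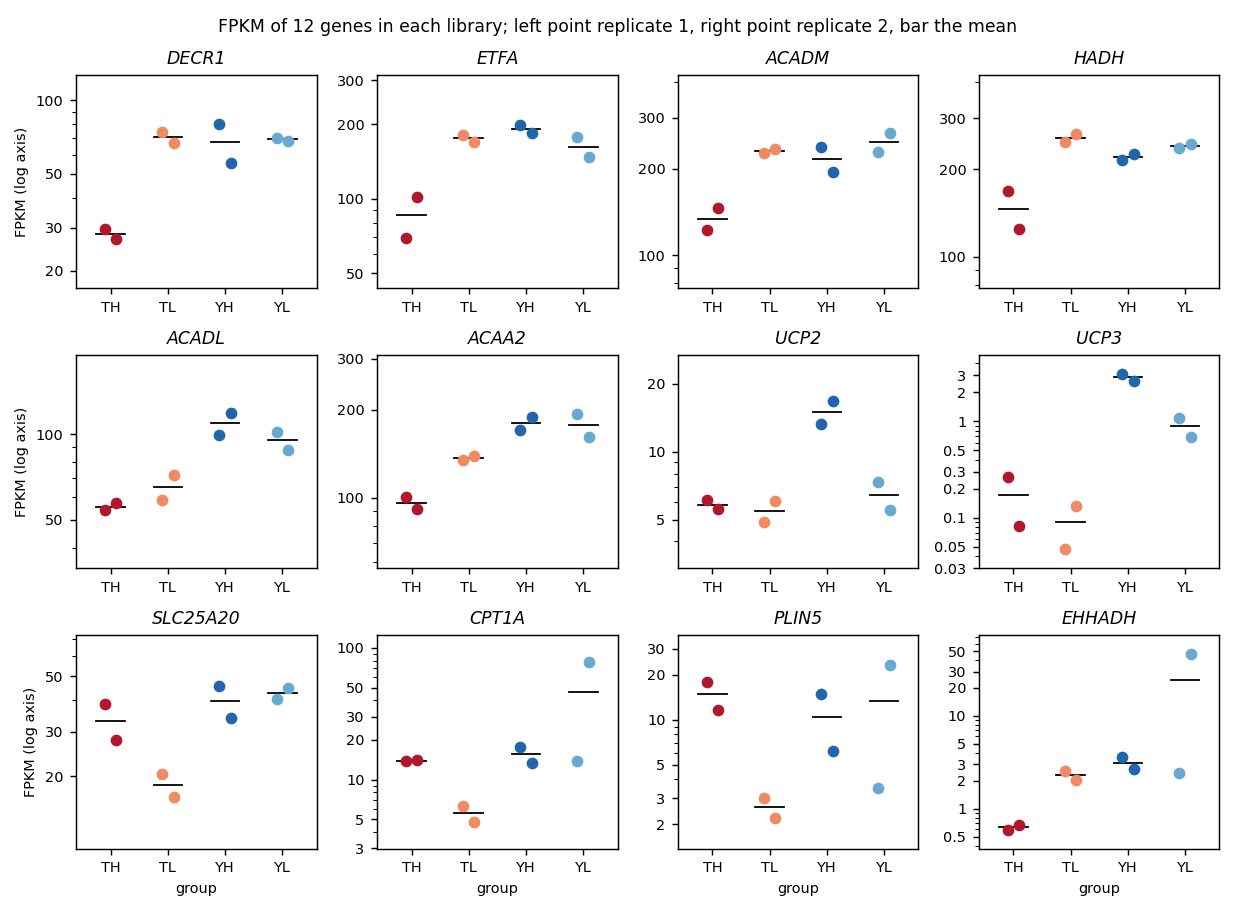
FPKM of 12 genes in each library on a log axis, by group, with the left point for replicate 1, the right point for replicate 2 and a bar for the mean. TH lies lowest for *DECR1*, *ETFA*, *ACADM* and *HADH*, TL lies lowest for *SLC25A20*, *CPT1A* and *PLIN5*, and *UCP3* separates the breeds.

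*UCP3*, the uncoupling protein of muscle mitochondria (ENSSSCG00000014834, chromosome 9, 9166710 to 9179299), was low in every Tibetan library. FPKM of *UCP3* was 0.264 and 0.0831 (TH), 0.0477 and 0.132 (TL), 3.08 and 2.63 (YH) and 1.09 and 0.682 (YL). All 4 Tibetan libraries were at or under 0.264, with 4 to 19 reads each, and all 4 Yorkshire libraries at or above 0.682, with 72 to 276 reads. The mean of YH was 16.5 times that of TH, and the mean of YL was 9.83 times that of TL. On the log2(FPKM + 1) scale, which understates the change of so low a gene, the difference in TH vs. YH was -1.72 ± 0.22 (SE), adjusted p = 0.0487. Only YH1, YH2 and YL1 reached 1 FPKM, so the gene entered the test through the group in which it is high, and its p is no support for the difference. With no filter its adjusted p was 0.0539, and over 15 alternatives it ran from 0.0323 to 0.373. In TL vs. YL it was -0.78 ± 0.22 (SE), adjusted p = 0.343, and -0.94 ± 0.24 (SE) without YL2, adjusted p = 0.295. In YH vs. YL it was 1.04 ± 0.22 (SE), adjusted p = 0.582, and 0.88 ± 0.24 (SE) without YL2, adjusted p = 0.596.

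*UCP2*, the neighbouring uncoupling protein gene (chromosome 9, 9147992 to 9155011), is expressed in many cells, macrophages among them. It was measured at 6.11 and 5.56 (TH), 4.86 and 6.07 (TL), 13.3 and 16.8 (YH) and 7.37 and 5.51 (YL). Here YH stood above the other 3 groups, and YL2 lay among the Tibetan libraries. For *UCP2*, TH vs. YH was -1.23 ± 0.23 (SE), adjusted p = 0.0983. In YH vs. YL it was 1.11 ± 0.23 (SE), adjusted p = 0.582, and 0.93 ± 0.25 (SE) without YL2, adjusted p = 0.596. The ratio of *UCP2* to *UCP3* was 23.1 to 102 in the Tibetan libraries and 4.32 to 8.08 in the Yorkshire ones. The 8 macrophage markers summed to 43.6 and 65.3 FPKM (TH), 116 and 119.6 (TL), 106 and 126 (YH) and 106.5 and 72.6 (YL). Of the 7 tested, 3 had TH below YH without overlap and 0 above, against 27.3% and 25.2% of all genes. Their part in the level of *UCP2* was not tested. *ACOT13*, a mitochondrial acyl-CoA thioesterase and the most abundant gene of this role, was at 196 and 128 (TH), 177 and 170.1 (TL), 147 and 117 (YH) and 198 and 192 (YL). The YH libraries held the lowest value of the 8, and no difference of *ACOT13* reached an unadjusted p under 0.05.

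The peroxisomal genes *HSD17B4*, the D-bifunctional protein, and *EHHADH*, the L-bifunctional protein, were lower in TH than in TL and YH and very high in YL2. *HSD17B4* was at 2.71 and 6.33 (TH), 9.12 and 8.66 (TL), 10.5 and 14.1 (YH) and 5.74 and 38.1 (YL). *EHHADH* was at 0.594 and 0.671 (TH), 2.55 and 2.04 (TL), 3.57 and 2.66 (YH) and 2.44 and 46.8 (YL). Both TH libraries lay below both libraries of TL and of YH for each gene, and YL2 was 2.70 and 13.1 times the next library. For *HSD17B4*, YL1 at 5.74 lay between the TH libraries. *EHHADH* rested on 3 reads in each TH library and on 11 to 20 in TL, YH and YL1, and it reached 1 FPKM in every library but those of TH, so its test gives no support to a lower level in TH. With all libraries neither gene reached an unadjusted p under 0.05 in TH vs. YH (adjusted p of 0.428 and 0.557). Without YL2 the log2 fold changes stayed at -1.34 and -1.33, with smaller errors of 0.34 and 0.20 and adjusted p of 0.103 and 0.0481, all from limma with Benjamini-Hochberg adjustment.

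*PLIN5*, which coats the lipid droplets that touch mitochondria, varied most between groups of the storage genes. FPKM of *PLIN5* was 18.00 and 11.7 (TH), 3.02 and 2.20 (TL), 14.9 and 6.15 (YH) and 3.51 and 23.2 (YL). TL was the lowest group and YL1 lay just above it, while YH1 and YH2, and YL1 and YL2, were far apart. The difference in TH vs. TL was 2.11 ± 0.77 (SE), adjusted p = 0.368. Without YL2 its error was 0.41 and its adjusted p 0.0974. *DGAT1*, which makes triglyceride from diacylglycerol, was at 7.25 to 11.4 FPKM and showed no difference at an unadjusted p under 0.05.

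Patterns across more than 1 pair of groups were chosen after the values were seen and are given as counts over the 7 libraries without YL2. In 10 of 40 entries, or 25%, both TH libraries lay below TL, YH and YL1, against 11.9% of all genes. These were *ACADL*, *ACADM*, *HADH*, *HADHB*, *ECHS1* and *ACAA2* of the spiral, *ETFA*, *DECR1*, *EHHADH* and *SLC27A1*. *EHHADH* passed the filter only through the groups in which it is high, so it gives no support to the pattern, and 9 are left without it. The reverse, both TH libraries above, held for *ACSL4* alone, against 13.7% of all genes. Both TL libraries lay above TH, YH and YL1 in *ACAD9* and *HADH*, or 5.0% against 7.34% of all genes. In 5 entries, or 12.5%, both TL libraries lay below TH, YH and YL1, against 6.13% of all genes. These were *PLIN5* and 4 shuttle entries, *SLC25A20*, *CPT2*, *CRAT* and the larger *CPT1A* entry.

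A difference by breed was seen in 1 direction. In 13 of 40 entries, or 32.5%, YH and YL1 lay above all 4 Tibetan libraries, against 6.56% of all genes, and the reverse was seen in 0 entries, against 8.07%. The 13 were *CD36*, the chromosome 17 entry of *FABP3*, *CPT1B*, *ACADL*, *ACADS*, *HADHA*, *HADHB*, *ECHS1*, *ACAA2*, *ECI2*, *ETFDH*, *UCP2* and *UCP3*. *UCP3* passed the filter only through YH1, YH2 and YL1, the libraries this pattern needs to be high, so it gives no support to the pattern, and 12 are left without it. With YL2 added, the order held for *ACADL*, *ACADS*, *ECHS1*, *ACAA2* and *ECI2*, and for *UCP3*, which again gives no support. No share of all genes stands beside that order of 8 libraries, so it gives no result about the fatty acid genes as a list. Of 13 cardiomyocyte markers, 6 had TH below YH without overlap and 1 had it above, and in TH vs. TL these counts were 7 and 1, against 27.3% and 25.2% and against 24.5% and 24.0% of all genes. At an unadjusted p under 0.05, 1 was lower and 1 higher in TH vs. YH, against 8.47% and 7.71% of all genes, and 3 were lower in TH vs. TL, against 5.53%. Their summed level was 47683 and 28617 FPKM in TH and 35413 to 44955 in TL, YH and YL1. The atrial markers, which stood apart in both directions as given above, had 3 higher and 1 lower in TH vs. YH at that threshold. In TH vs. TL they had 2 higher and 1 lower, against 5.81% and 5.53% of all genes. The skeletal muscle list summed to 30018 and 21397 FPKM in TH and to 5840.1 to 15617 elsewhere, nearly all of it *ACTA1*, which heart muscle also expresses, at 30005 and 21387 in TH. Of its 4 tested entries, 2 were higher and 2 lower in TH vs. YH. At an unadjusted p under 0.05, 2 were higher and 1 lower, against 7.71% and 8.47% of all genes. Of 11 endothelial markers, 5 had TH below YH without overlap and 2 above, and 7 had TL above YL and 0 below, against 23.8% and 17.8% of all genes. The blood list summed to 3089 and 1625 in TH and to 528 to 1400 elsewhere, with *HBB* at 1708 and 876 in TH. The fibroblast list had 10 tested entries, and all 10 were higher in TL than in YL. Of these, 9 stood apart and 6 had an unadjusted limma p under 0.05, against 23.8% and 5.9% of all genes. Its 11 entries summed to 837 FPKM (TL1) and 655 (TL2), with 286 for YL1 and 246 for YL2. TH1 summed to 207 and TH2 to 722, YH1 to 337 and YH2 to 410. For TH vs. YH, 3 stood apart higher and 1 lower, against 25.2% and 27.3%. The part of these markers in the patterns was not tested.

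The test of whether the highland difference was unequal between breeds called 0 of 40 entries in limma, where 0.0336% of all genes were called. At an unadjusted p under 0.05, 6 entries had a more negative TH vs. TL difference than YH vs. YL difference (*DECR1*, *ETFA*, *UCP2*, *UCP3*, *SLC27A1* and *ACACB*) and *SLC25A20* a more positive one, against 7.16% and 3.78% of all genes and together 17.5% against 10.9%. The smallest adjusted p was 0.337. This count was 4 without TL1 (5.82% of all genes), 2 without TL2 (5.41%), 3 without YH2 (6.54%) and 16 without YL1 (24.9% of all genes). For *UCP2* and *UCP3* YH lay above YL, whereas TH and TL overlapped. Without YL2 the count was also 7, where 12.8% of all genes differed, but *DECR1*, *ETFA*, *UCP2* and *UCP3* were the only 4 in both. *SLC27A1*, *ACACB* and *SLC25A20* were no longer among them, and *CPT1A*, *EHHADH* and *HSD17B4* were.

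The libraries of YL and of TH differed most from each other over these genes. The median gap between the libraries of a group, as log2(FPKM + 1), was 0.44 in YL and 0.42 in TH, against 0.11 in TL and 0.20 in YH. In 19 of 41 entries the YL gap was the largest of the 4. Of the 40 tested entries, YL2 was the highest of the 8 libraries in 11 and the lowest in 10, or 27.5% and 25% against 24.7% and 22.5% of all genes. In 5 tested entries YL2 was more than 2 times every other library, or 12.5% against 6.48% of all genes. These were *ACSL3*, *EHHADH*, *HSD17B4* and both *CPT1A* entries, with *SLC27A6* as a sixth outside the test. The tubule of the kidney is known to burn fatty acids and to hold many peroxisomes. The defining kidney markers *UMOD*, *MIOX*, *LRP2* and *SLC5A2* were at 947, 661, 190.3 and 4023 FPKM in YL2 and at or under 1.12 in every other library. The adipocyte list summed to 1611 FPKM in YL2 and to 22.4 to 46.7 elsewhere. It shares *PCK1* with the kidney list, so the sums of these lists are not separate measures. In 3 of its 7 entries YL2 was more than 2 times every other library, while the lipid droplet marker *PLIN1* of fat cells was at 0.289 FPKM in YL2 and *LEP* at 0. The part of either list in the YL2 levels of the fatty acid genes was not tested. With YL2 as the only YL library, limma called *CPT1A* and *EHHADH* in TL vs. YL and in YH vs. YL, where 2.56% of all genes were called in each, and *CPT1A* in the test of unequal highland differences (1.28% of all genes). With YL1 as the only one it called 0 entries.

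**Figure D4:**
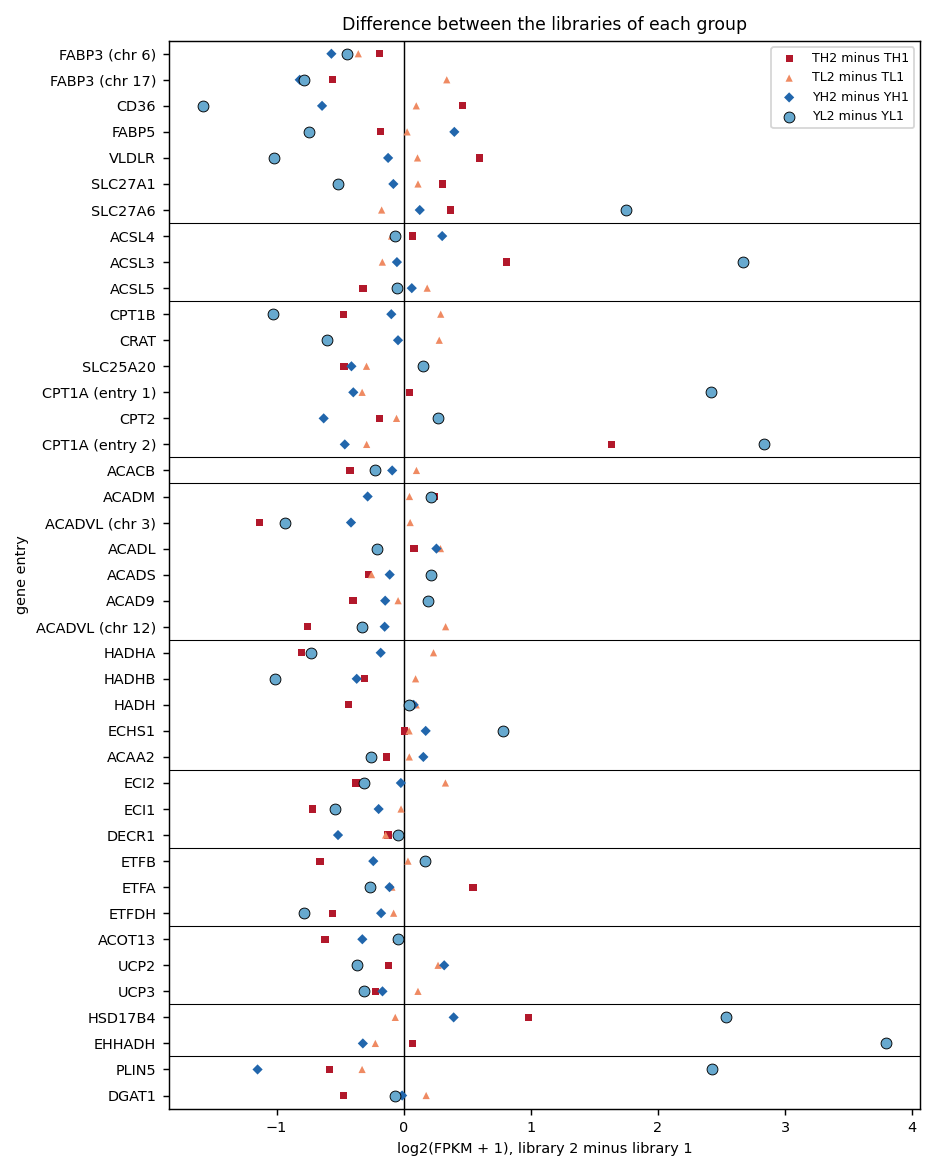
Difference between the 2 libraries of each group in log2(FPKM + 1), library 2 minus library 1, for each of the 41 entries, with YL as outlined circles. The YL circles reach past 2 for *ACSL3*, both *CPT1A* entries, *HSD17B4*, *EHHADH* and *PLIN5* and past -1 for *CD36*, *VLDLR*, *CPT1B* and *HADHB*, while TL points stay near 0.

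A wider list of 80 other genes of fatty acid metabolism was counted beside these. The table held 72 of the symbols in 78 entries, 66 of them tested, and limma called 0 in each comparison with all libraries. At an unadjusted p under 0.05, 11 were lower and 6 higher in TH vs. YH, or 16.7% and 9.09% against 8.47% and 7.71% of all genes. In TH vs. TL 7 were lower and 6 higher, or 10.6% and 9.09% against 5.53% and 5.81%. In TL vs. YL 3 were lower and 5 higher, or 4.55% and 7.58% against 3.04% and 5.9%. In YH vs. YL 5 were higher, or 7.58% against 4.39%. Single libraries moved these counts. Without YL2, 20 were lower and 7 higher in TH vs. YH (11.8% and 10.9% of all genes), and 15 lower and 6 higher in TH vs. TL (8.58% and 8.55%). Then 3 were lower and 8 higher in TL vs. YL (3.89% and 5.83%), and in YH vs. YL 1 was lower and 4 were higher (2.04% and 3.41%). By sign alone, 41 of the 66 were lower in TL vs. YL with all libraries and 24 without YL2. Without TH1, 1 was higher in TH vs. YH and 3 in TH vs. TL (4.67% and 4.58% of all genes). Without YL1, limma called 9 entries in TL vs. YL, 9 in YH vs. YL and 2 in the interaction, against 2.56%, 2.56% and 1.28% of all genes. The median log2 fold change of the 66 was -0.26 in TH vs. YH and -0.33 in TH vs. TL, against -0.03 and -0.02 over all genes. Over the 66, 32 had both TH libraries below both TL libraries and 11 had them above, against 24.5% and 24.0% of all genes. By group, these counts were 13 and 0 of 14 other peroxisomal enzymes, 8 and 0 of 11 of other mitochondrial oxidation, 4 and 2 of 11 of fatty acid synthesis, 2 and 1 of 6 of glycerolipid synthesis and 2 and 2 of 9 carriers and binding proteins. They were 2 and 1 of 3 of carnitine synthesis and other acyltransferases, 1 and 3 of 8 of lipid droplets and lipolysis and 0 and 2 of 4 other thioesterases.

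Among these other genes, *ANGPTL4* and *PLIN2* were lowest in TL. *ANGPTL4*, a secreted inhibitor of lipoprotein lipase, was at 21.5 and 10.04 FPKM (TH), 3.16 and 3.42 (TL), 11.2 and 9.78 (YH) and 7.43 and 15.3 (YL). *PLIN2*, the general coat protein of lipid droplets, was at 8.45 and 10.1 (TH), 1.40 and 2.33 (TL), 24.6 and 23.9 (YH) and 5.95 and 21.2 (YL). Both TL libraries were the lowest of the 8 for each gene. The TH vs. TL difference of *ANGPTL4* was 1.88 ± 0.42 (SE), adjusted p = 0.220. That of *PLIN2* was 1.86 ± 0.51 (SE), adjusted p = 0.272. Without YL2 the adjusted p of *PLIN2* was 0.0411. *PLIN4*, another coat protein that heart and fat hold in quantity, took the other direction. *PLIN4* was at 2.65 and 3.58 (TH), 8.92 and 9.33 (TL), 9.24 and 9.02 (YH) and 5.27 and 5.78 (YL). TH was the lowest group without overlap. Its TH vs. TL difference was -1.31 ± 0.20 (SE), adjusted p = 0.119. Its TH vs. YH difference was -1.31 ± 0.20 (SE), adjusted p = 0.0691.

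*PCCA*, a subunit of the propionyl-CoA carboxylase that odd chains need, was at 3.82 and 6.95 FPKM (TH), 14.5 and 14.0 (TL), 22.2 and 18.1 (YH) and 17.4 and 20.3 (YL). *GOT2*, an aminotransferase of mitochondria that also binds fatty acids at the cell surface, was at 69.8 and 102 (TH), 146 and 168 (TL), 186 and 187 (YH) and 138 and 94.0 (YL). *ACSS1*, the mitochondrial acetyl-CoA synthetase, was at 16.8 and 30.3 (TH), 27.7 and 29.9 (TL), 73.4 and 54.4 (YH) and 63.5 and 41.3 (YL). TH was the lowest group for *PCCA*, shared its range with YL2 for *GOT2* and with TL for *ACSS1*. The log2 fold change of *PCCA* in TH vs. YH was -1.77 ± 0.28 (SE), adjusted p = 0.0761. That of *GOT2* was -1.14 ± 0.29 (SE), adjusted p = 0.169. That of *ACSS1* was -1.44 ± 0.35 (SE), adjusted p = 0.154.

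*HACL1*, a peroxisomal lyase of branched chains with 2 entries in the table, and *FADS1*, the delta-5 desaturase, complete the genes named by the rule. The entry of *HACL1* with the larger difference was at 1.34 and 2.63 FPKM (TH), 4.50 and 3.05 (TL), 4.81 and 6.72 (YH) and 2.75 and 6.98 (YL). *FADS1* was at 13.5 and 9.97 (TH), 9.03 and 7.64 (TL), 4.14 and 5.38 (YH) and 1.78 and 4.32 (YL). Every Tibetan library lay above every Yorkshire library for *FADS1*, the opposite order to that of *UCP3*. The log2 fold change of *HACL1* in TH vs. YH was -1.20 ± 0.42 (SE), adjusted p = 0.246. That of *FADS1* was 1.14 ± 0.34 (SE), adjusted p = 0.203. In TL vs. YL *FADS1* differed by 1.28 ± 0.34 (SE), adjusted p = 0.333, and 1.74 ± 0.28 (SE) without YL2, adjusted p = 0.141.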

How the data were processed

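Heart RNA pools of Tibetan and Yorkshire pigs were sequenced. The authors aligned reads to Sscrofa10.2 with TopHat 2.0.9 and made the deposited FPKM values with Cufflinks. The deposited table also holds a signal value per gene and library, reads that the authors multiplied by 1 factor per library, and the submitters' processing notes name DESeq 1.10.1. About 99.8% of the low scaled reads of each library were whole multiples of 1 read, within 0.05, and they were divided back to give the reads printed here. Descriptions of the YL samples point to the TL file, while their title, breed and column name say YL, which was followed.

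FPKM values were tested as log2(FPKM + 1) with limma 3.58.1 in R 4.3.3 (trend, all 8 libraries in 1 fit). Genes needed 1 FPKM in 2 libraries, and p-values were adjusted by Benjamini-Hochberg over 11913 genes. A gene was called where that value was under 0.01 with a log2 fold change past 1 in either direction. The fit was tested on simulated data. The members and lists were chosen with earlier results of these data known. Values in all libraries are given for entries with an unadjusted p under 0.05 and groups apart in TH vs. YH or TH vs. TL (at most 15), for the most abundant entry of each role, for entries over 2 times higher in YL2 and for those under the filter, and for at most 8 other pathway genes by the first of these rules.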

Additional observations from a re-analysis of the deposited data

How the results depend on the processing

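The 37 gene differences followed through the alternatives were picked by an unadjusted limma p under 0.05 in these same data. None changed direction, but after such a choice this gives them no support. Many did not keep that p in every alternative, and their sizes moved, as for *ACSL4* in TH vs. TL, from 0.146 to 0.905. *CPT1A* alone newly passed the call threshold, in TL vs. YL without YL1 (log2 fold change -3.62). Beyond these 37, differences from YL did change direction without YL2, such as *ACSL3* (-0.89 to 0.44), *CD36* (0.63 to -0.16) and *CPT1B* (0.34 to -0.18) in TL vs. YL, and without YL1 limma also called *EHHADH* there, *CPT1A* and *EHHADH* in YH vs. YL and *CPT1A* in the interaction. With FPKM rescaled to 1000000 per library, the median log2 fold change was -1.09 in TH vs. YH, -0.41 in TL vs. YL, -0.65 in TH vs. TL and -0.63 in the interaction, where the median of all genes was -0.50, -0.23, -0.27 and -0.26, and the entries at an unadjusted p under 0.05 numbered 18 in TH vs. YH, where all 40 fold changes were negative, 4 in TL vs. YL, 3 in TH vs. TL, 2 in YH vs. YL and 0 in the interaction. A mean of at least 10 FPKM left 5 in TL vs. YL and 1 in YH vs. YL, a fit of only the 4 libraries compared left 4 in TL vs. YL, and median-ratio scaling gave 6 in YH vs. YL and 18 in TH vs. YH. An adjusted p under 0.05 gave 1 call in TH vs. YH. The FPKM sum of a library, which the rescaling to 1000000 divides out, ran from 1.56e+06 in YL2 to 8.56e+06 in TH1. The counts at an unadjusted limma p under 0.05 in these alternatives have no share of all genes beside them. They give no result about the fatty acid genes as a list, and neither does the shared sign of the 40 fold changes. The cause of these shifts was not tested.

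Leaving out each library in turn gave 6 to 16 entries at an unadjusted p under 0.05 and medians of -0.59 to -0.38 in TH vs. YH, 2 to 16 and -0.24 to -0.030 in TL vs. YL, 2 to 12 and -0.24 to 0.043 in TH vs. TL, 2 to 17 and -0.040 to 0.15 in YH vs. YL, and 2 to 16 and -0.37 to 0.063 in the interaction. Called entries ran from 0 to 2 in TL vs. YL and in YH vs. YL and from 0 to 1 in the interaction. A lone library was assumed to vary like the other groups.

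Replicate numbers were shared between groups only as numbers, since deviations of same-numbered libraries correlated at -0.0844 to 0.118. With a replicate block, entries at an unadjusted p under 0.05 numbered 11 in TH vs. YH, 7 in TL vs. YL, 7 in TH vs. TL, 3 in YH vs. YL and 6 in the interaction, and limma called 0. No share of all genes stands beside these counts either, so they give no result about the fatty acid genes. The planned count test on recovered reads was not run, and limma on the authors' scaled reads, chosen after seeing the data, took its place.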

Other observations

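Genes that govern the choice between glucose and fatty acids were looked at after the values above were seen. *PDK4*, the kinase that shuts pyruvate dehydrogenase and so spares glucose, was at 182.9 and 154 FPKM (TH), 6.50 and 34.7 (TL), 303 and 253 (YH) and 359 and 77.7 (YL). Both TL libraries were the lowest of the 8, the order also seen for *SLC25A20*, *PLIN5*, *ANGPTL4* and *PLIN2*. The TH vs. TL difference was 3.37 ± 0.88 (SE), with an adjusted p of 0.261 in limma with Benjamini-Hochberg adjustment, so it did not pass the test. *PPARA*, the nuclear receptor that drives many of these genes, was listed on unplaced scaffold GL895405.2 from 3658 to 6512, with 17 and 25 reads in TH. FPKM of *PPARA* was 1.04 and 1.49 (TH), 2.67 and 4.62 (TL), 2.22 and 1.70 (YH) and 1.96 and 2.77 (YL), with TH lowest and TL not low. The TH vs. TL difference of *PPARA* was -1.01 ± 0.28 (SE), adjusted p = 0.278 in limma, so it did not pass the test. *PPARD*, its relative, stayed between 5.35 and 6.56 FPKM in all libraries.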
